A study of Mus musculus with 6 samples.

Results

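The 5 liver cytochrome P450 genes Cyp3a11, Cyp3a13, Cyp3a16, Cyp3a25 and Cyp3a44, the xenobiotic receptor genes Nr1i2 (PXR) and Nr1i3 (CAR), and Por were examined in livers of KRAP-/- mice beside those of wild-type littermates. Every probe set that the annotation table gave to exactly 1 of these 8 symbols was taken, which left 8 of 45037 probe sets, from 7 of the 8 genes, out of 18193 genes named on the arrays by such probe sets. Nr1i2 had 2 probe sets, the other 6 genes had 1 each, and Por, the reductase that passes electrons to these enzymes, had no value here. The genes were chosen on earlier results of this same contrast, in which Cyp3a16 and Cyp3a44 stood among the lower probe sets, so the values of these 2 genes are a description and carry no test.

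Total liver RNA from 3 littermate pairs, each a KRAP-/- and a wild-type mouse 32 weeks old on normal chow, was labelled and put on 6 expression arrays, 1 for each mouse. In the KRAP-/- mice a neomycin resistance cassette took the place of several coding exons in every tissue, and the line, made in embryonic stem cells with a targeting vector from a 129 library, had been backcrossed to C57BL6/J. The sex of the mice was not given for these arrays. The brightest Xist probe set read 66.3 to 85.6 on all 6 arrays, and the 9 probe sets of the Y-linked genes Eif2s3y, Kdm5d and Uty read at most 0.526. By these signals all 6 mice were female. Every signal below is in units of the median of its own array, and differences are log2 values of KRAP-/- minus wild-type within pairs. Array medians before this division were 20.2 to 23.4 in KRAP-/- and 19.1 to 22.6 in wild-type, on the scale of the deposited intensity. Values under 0.1 of the array median have no reliable size and were raised to 0.1 before logarithms were taken. The probe set of the targeted gene, now listed as Itprid2, read 20.0 to 21.6 in KRAP-/- and 22.3 to 24.5 in wild-type. Whether it lies within the replaced exons was not given in the sources used here, so it checks nothing about the labels.

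Cyp3a enzymes are membrane-bound monooxygenases of the hepatocyte endoplasmic reticulum that oxidise steroids, bile acids and many drugs. PXR and CAR are nuclear receptors that sense such compounds, pair with the retinoid X receptor and bind repeats of a short hexamer in front of Cyp3a, Cyp2b and Cyp2c genes. CAR is held in the cytoplasm until it is released, and PXR is activated by direct binding of its ligands. Cyp3a11 is the main Cyp3a enzyme of adult mouse liver, Cyp3a41a and Cyp3a44 are known as female-predominant genes, and Cyp3a16 was first described in fetal and newborn liver.

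The start sites of the genes that were low in KRAP-/- liver are shown first, because these genes are close copies of each other. An array probe can read more than 1 such copy, which bases before the start site cannot show. Below are the 180 bases before the start site in RefSeq (GRCm38.p6, minus strand, printed 5′ to 3′) of Cyp3a16 (chr5:145469724-145469903), Cyp3a44 (chr5:145805875-145806054) and Cyp3a41a (chr5:145720137-145720316), followed by Cyp3a11 (chr5:145879855-145880034) and Cyp3a25 (chr5:146009619-146009798), whose signals were not lower. Capitals mark the hexamers AGGTCA or AGTTCA on either strand, the letters of a nuclear receptor half-element.
Cyp3a16: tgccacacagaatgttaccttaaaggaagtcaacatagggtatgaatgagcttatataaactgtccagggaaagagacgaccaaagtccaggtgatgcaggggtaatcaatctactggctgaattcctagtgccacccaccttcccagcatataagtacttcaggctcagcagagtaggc
Cyp3a44: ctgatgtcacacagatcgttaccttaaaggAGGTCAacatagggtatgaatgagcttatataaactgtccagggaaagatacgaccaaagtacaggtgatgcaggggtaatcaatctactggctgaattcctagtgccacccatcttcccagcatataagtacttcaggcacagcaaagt
Cyp3a41a: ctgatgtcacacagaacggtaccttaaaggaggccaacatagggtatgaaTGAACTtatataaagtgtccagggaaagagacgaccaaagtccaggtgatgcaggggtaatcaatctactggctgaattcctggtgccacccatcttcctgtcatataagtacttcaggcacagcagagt
Cyp3a11: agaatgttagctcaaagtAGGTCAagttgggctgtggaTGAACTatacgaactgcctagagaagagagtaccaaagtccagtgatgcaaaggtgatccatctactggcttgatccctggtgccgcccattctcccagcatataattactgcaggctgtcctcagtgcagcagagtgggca
Cyp3a25: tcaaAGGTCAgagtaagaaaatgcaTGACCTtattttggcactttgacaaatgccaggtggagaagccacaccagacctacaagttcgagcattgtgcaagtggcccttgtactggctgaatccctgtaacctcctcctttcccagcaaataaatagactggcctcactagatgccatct

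Over 250 bases before the start, Cyp3a16 and Cyp3a44 were identical at 236 of 246 aligned bases, or 95.9%. Both were 93.9% to 94.8% identical to Cyp3a41a and Cyp3a41b, which were 99.6% identical to each other. Cyp3a11 came next, with 83.3% identity to Cyp3a16 and 80.9% to Cyp3a44. Cyp3a25 and Cyp3a13 reached 60.5% to 65.7% against any other Cyp3a promoter, inside the 50.7% to 68.5% seen for pairs that hold Nr1i2, Nr1i3 or Por. The probe sets with the lower KRAP-/- signals belonged to the copies with the most alike start regions. Cyp3a11, the next nearest copy, was not among them. Whether the start regions bear on the signals was not tested.

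**Figure D1:**
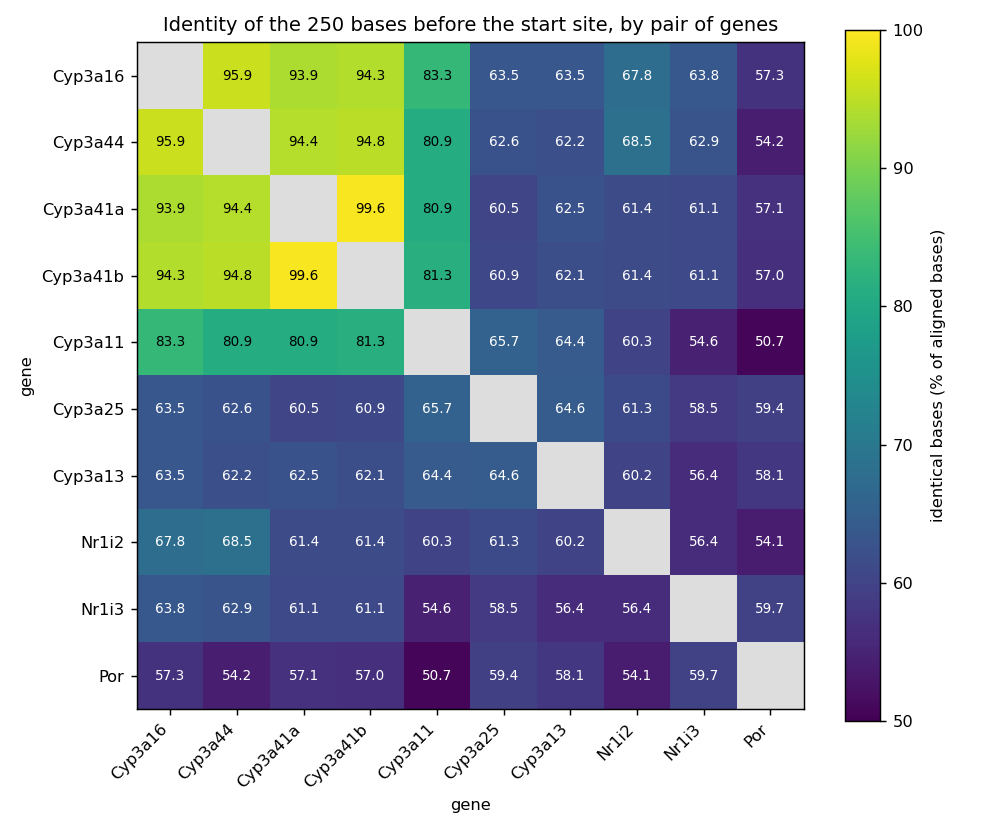
Identical bases as a percent of aligned bases for each pair of 10 genes over the 250 bases before the start site (both axes list genes, colour gives the percent, grey marks a gene against itself). Cyp3a16, Cyp3a44, Cyp3a41a and Cyp3a41b form a block of 93.9% to 99.6%, and Cyp3a11 is at 80.9% to 83.3% with them.

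The hexamer was found once in Cyp3a44 (150 to 145 bases before the start), once on the opposite strand in Cyp3a41a and Cyp3a41b (130 to 125 bases), and at 2 places each in Cyp3a11 and Cyp3a25. The Cyp3a11 hexamers lie 162 to 157 and 142 to 137 bases before the start, and those of Cyp3a25 176 to 171 and 155 to 150 bases before it. It was not found in Cyp3a16, Cyp3a13, Nr1i2, Nr1i3 or Por, and 24.2% of 32851 promoters of the same length hold it. Hexamers as direct repeats 3 or 4 bases apart, or everted 6 bases apart, occur in 0.0122%, 0.0244% and 0.00913% of promoters and in none of these 10. The letters TTCNNNGAA, the core of STAT elements, occur in 7.02% of promoters and in none of the 10 either. The letters TATATAA, which overlap themselves on the opposite strand, occur in Cyp3a16, Cyp3a44, Cyp3a41a and Cyp3a41b, not in Cyp3a11, Cyp3a13 or Cyp3a25, and in 3.04% of all promoters. The shorter TATAAA occurs in the same 4 genes and also in Cyp3a11, 234 to 229 bases before the start, and in 12.4% of promoters. These are matches of letters in a short window, and distal enhancers were not searched. The start regions of Cyp3a16, Cyp3a44, Cyp3a41a and Cyp3a41b are near copies (93.9% to 99.6% identical). Letters that all 4 share are therefore not 4 separate matches to set beside the shares of all promoters.

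Cyp3a16 and Cyp3a44 had lower signals on each KRAP-/- array than on any wild-type array. Cyp3a16 (probe set 1421741_at) read 1.30, 0.0310 and 0.0442 in KRAP-/- mice 1, 2 and 3, against 4.85, 9.39 and 19.6 in wild-type littermates 1, 2 and 3. The KRAP-/- values of pairs 2 and 3 lie under the limit of 0.1, and under the highest Y-linked signal of 0.526, so only an upper bound is known for them. The pair 1 wild-type signal was 3.72 times the KRAP-/- signal. With KRAP-/- values raised to 0.1, the pair 2 and pair 3 ratios were 93.9 and 196, and with them raised to 0.5, they were 18.8 and 39.2. The size of the Cyp3a16 difference in these 2 pairs is therefore set by where the floor is put. Its mean was 0.460 ± 0.732 in KRAP-/- and 11.3 ± 7.55 in wild-type (SD, n = 3), so that it passed the limit on dim probe sets, a mean of 0.5 over 6 arrays, through the wild-type arrays. With values floored at 0.1, its log2 difference was −5.35. A floor of 0.01 gave −6.31, a floor of 0.5 gave −3.81, and leaving out pair 1, 2 or 3 gave −7.08, −4.76 or −4.22.

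Cyp3a44 (1426064_at) read 2.19, 2.38 and 2.50 in KRAP-/- mice 1, 2 and 3, and 7.80, 14.4 and 15.4 in their wild-type littermates. All 6 values lay above 0.526, so this difference does not rest on the floor. The means were 2.35 ± 0.153 and 12.5 ± 4.14 (SD, n = 3), and wild-type exceeded KRAP-/- by 3.56, 6.05 and 6.18 times in pairs 1, 2 and 3. The log2 difference was −2.35, a description only, since the gene was chosen on this contrast. Within the arrays, Cyp3a44 moved from percentile 81.1 to 88.7 of all probe sets in wild-type to 63.8 to 66.4 in KRAP-/-, so it remained above the array median. Cyp3a16 moved from 75.0 to 90.6 in wild-type to 54.9, 4.44 and 6.35.

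A further related probe set, 1419704_at, was annotated to both Cyp3a41a and Cyp3a41b, and so lay outside the rule. It read 169, 35.6 and 54.1 in KRAP-/- mice 1, 2 and 3 and 256, 400 and 374 in wild-type, with means of 86.2 ± 72.1 and 344 ± 76.9 (SD, n = 3). The groups did not overlap, and the KRAP-/- to wild-type ratios were 0.659, 0.0890 and 0.144, a log2 difference of −2.29 (SE 0.41). Its pattern across mice had features in common with the 2 members. Wild-type mouse 1 gave the lowest wild-type signal and pair 1 the smallest difference at all 3 probe sets, and KRAP-/- mouse 1 gave the highest KRAP-/- signal at Cyp3a16 and Cyp3a41a/Cyp3a41b but the lowest at Cyp3a44. Probe sequences were not used here, so RNA of 1 copy read by the probes of another cannot be told apart from separate changes of the copies. The 3 probe sets are therefore not counted as 3 separate genes that fell.

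**Figure D2:**
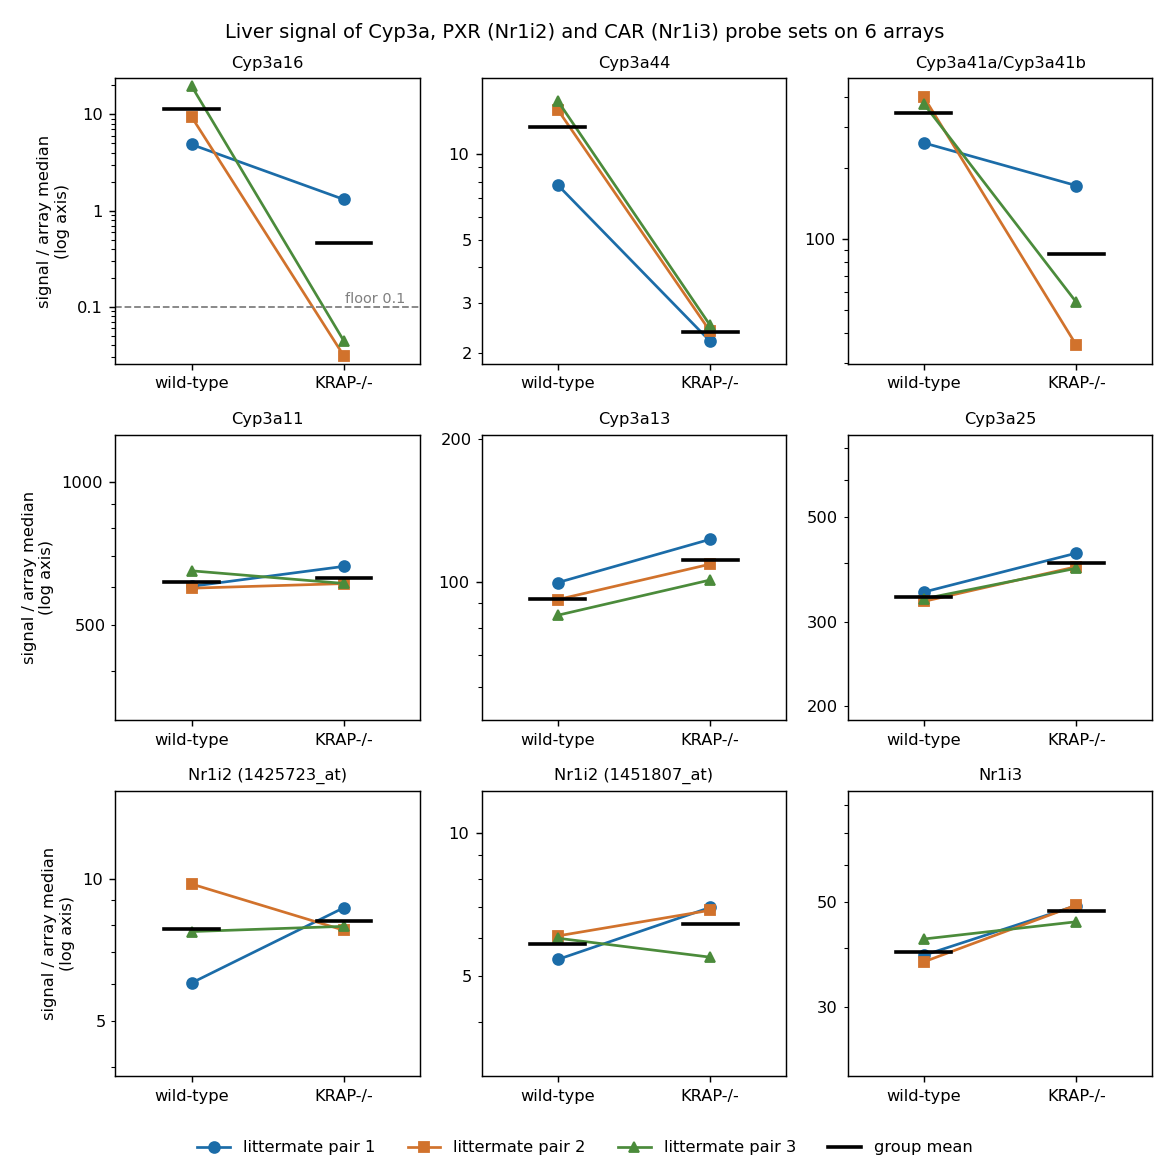
Signal in units of the array median (log axis, its range differs between panels) for the 8 member probe sets and the one shared by Cyp3a41a and Cyp3a41b, in wild-type and KRAP-/- liver. Coloured lines join the littermates of a pair, black bars are means of 3 mice, and the dashed line is the floor of 0.1. The top row lies lower in KRAP-/- in all 3 pairs, from 0.0310 to 1.30 for Cyp3a16 and 2.19 to 2.50 for Cyp3a44, and the other panels show rises of at most 1.44-fold or no common direction.

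Cyp3a11, the main adult enzyme of the family, did not show such a difference. Its probe set 1416809_at read 664, 611 and 611 in KRAP-/- mice 1, 2 and 3 and 603, 598 and 650 in their wild-type littermates. The groups overlapped, and KRAP-/- was higher in 2 of 3 pairs. The means were 629 ± 30.7 and 617 ± 28.9 (SD, n = 3), with a log2 difference of 0.03 (SE 0.08, 95% interval −0.15 to 0.21, limma adjusted p = 0.90). The interval spans 0.901 to 1.15 times the wild-type signal. Cyp3a11 stood at percentile 99.9 or above of all probe sets on each array, and whether a change of its RNA would be compressed at such a signal was not tested.

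Cyp3a13, an enzyme known also from the intestine, and Cyp3a25 were slightly higher on all KRAP-/- arrays without passing the test over the whole table. Cyp3a13 (1419523_at) read 123, 109 and 101 in KRAP-/- and 99.6, 91.7 and 85.0 in wild-type mice 1, 2 and 3. Its means of 111 ± 11.2 and 92.1 ± 7.31 (SD, n = 3) gave a log2 difference of 0.27 (SE 0.08, 95% interval 0.09 to 0.44, limma adjusted p = 0.15). The 3 pairs stood in the same order in both genotypes, and the pair ratios were 1.23, 1.19 and 1.19. Cyp3a25 (1424973_at) read 420, 393 and 390 in KRAP-/- and 347, 332 and 336 in wild-type, with means of 401 ± 16.4 and 338 ± 7.98 (SD, n = 3). Its log2 difference was 0.24 (SE 0.07, 95% interval 0.08 to 0.41, limma adjusted p = 0.17), and its pair ratios were 1.21, 1.18 and 1.16. Both sets of ratios lay far closer together than those of Cyp3a16 and Cyp3a44.

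The PXR gene Nr1i2 did not separate the groups at either of its probe sets. The first, 1425723_at, read 8.69, 7.79 and 7.94 in KRAP-/- and 6.03, 9.75 and 7.74 in wild-type, with a log2 difference of 0.08 (SE 0.17, 95% interval −0.29 to 0.45, limma adjusted p = 0.86). The other, 1451807_at, read 6.97, 6.87 and 5.47 in KRAP-/- and 5.41, 6.07 and 6.001 in wild-type, with a log2 difference of 0.14 (SE 0.15, 95% interval −0.19 to 0.47, limma adjusted p = 0.71). Both are annotated to the same transcript record, and they gave different directions in pairs 2 and 3. In pair 2 the ratios were 0.799 and 1.13, and in pair 3 1.03 and 0.912. Only pair 1 was higher in KRAP-/- at both, by 1.44 and 1.29 times.

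The CAR gene Nr1i3 (1425392_a_at) read 49.1, 49.3 and 45.4 in KRAP-/- and 38.6, 37.4 and 41.8 in wild-type mice 1, 2 and 3. The groups did not overlap, with means of 47.9 ± 2.18 and 39.3 ± 2.27 (SD, n = 3). The log2 difference of 0.29 (SE 0.09, 95% interval 0.08 to 0.50) missed the threshold over the whole table (limma adjusted p = 0.19). The pair ratios were 1.27, 1.32 and 1.09, so the KRAP-/- mouse was higher in all 3 pairs. Its probe set identifier marks a group of transcripts of the gene, and splice forms of CAR were not told apart.

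**Figure D3:**
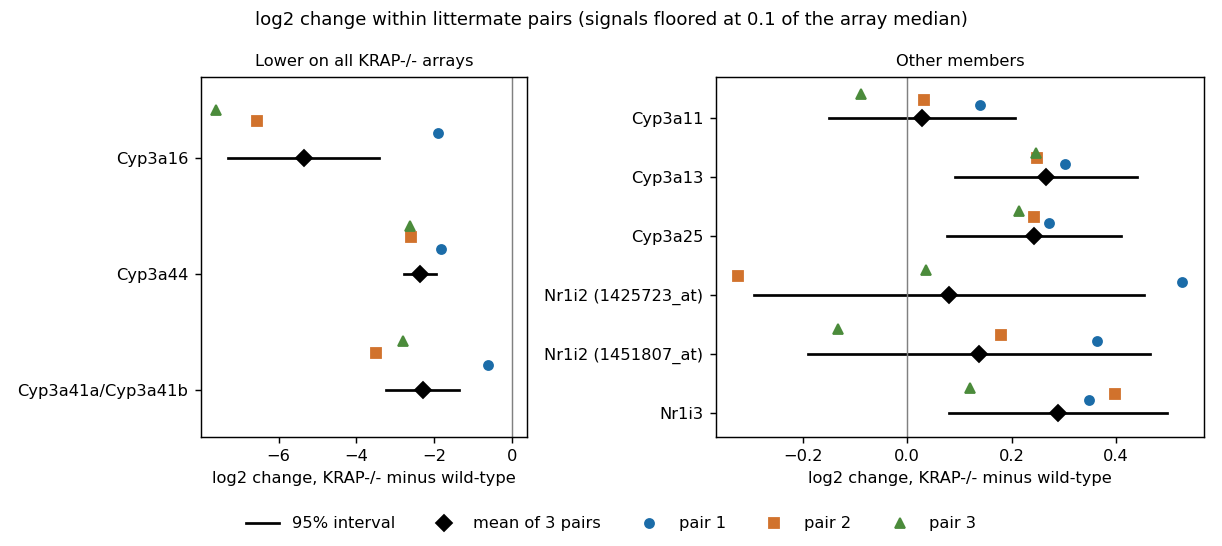
log2 difference, KRAP-/- minus wild-type, with signals floored at 0.1 of the array median. Diamonds are means of 3 pairs, black lines 95% intervals of the limma fit (for Cyp3a16, of floored values) and coloured symbols the single pairs. Cyp3a16 and Cyp3a44 were chosen on this contrast, so their intervals are no test. The left panel holds Cyp3a16 (−5.35), Cyp3a44 (−2.35) and the Cyp3a41a/Cyp3a41b probe set (−2.29), and the right panel the other members, from 0.03 for Cyp3a11 to 0.29 for Nr1i3, on a much finer scale.

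Over the 28531 probe sets fitted, 0.978% were called lower and 0.431% higher in KRAP-/- at an adjusted p of 0.05. Of the 8 members, 2 were called lower, Cyp3a16 and Cyp3a44, and 0 higher. By the rule of at least 1.5-fold in every pair, 2 members were lower, where 2.88% of all 45037 probe sets were, and 0 were higher, where 2.3% were. The KRAP-/- arrays lay wholly above the wild-type arrays for 3 members and wholly below for 2, against 7.8% and 12.3% of the fitted probe sets, and 3 members were higher in all 3 pairs, against 15.3%. Since this contrast led to the choice of the group, nothing is read from these counts. The median log2 difference of the other 6 member probe sets was 0.19, with −0.04 over all fitted probe sets, and their adjusted p-values ran from 0.15 to 0.90. Without a limit on dim probe sets, or without a trend of the variance with intensity, no probe set of the table passed by limma, Cyp3a16 and Cyp3a44 included, with 4551 and 3089 at an unadjusted p under 0.05.

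**Figure D4:**
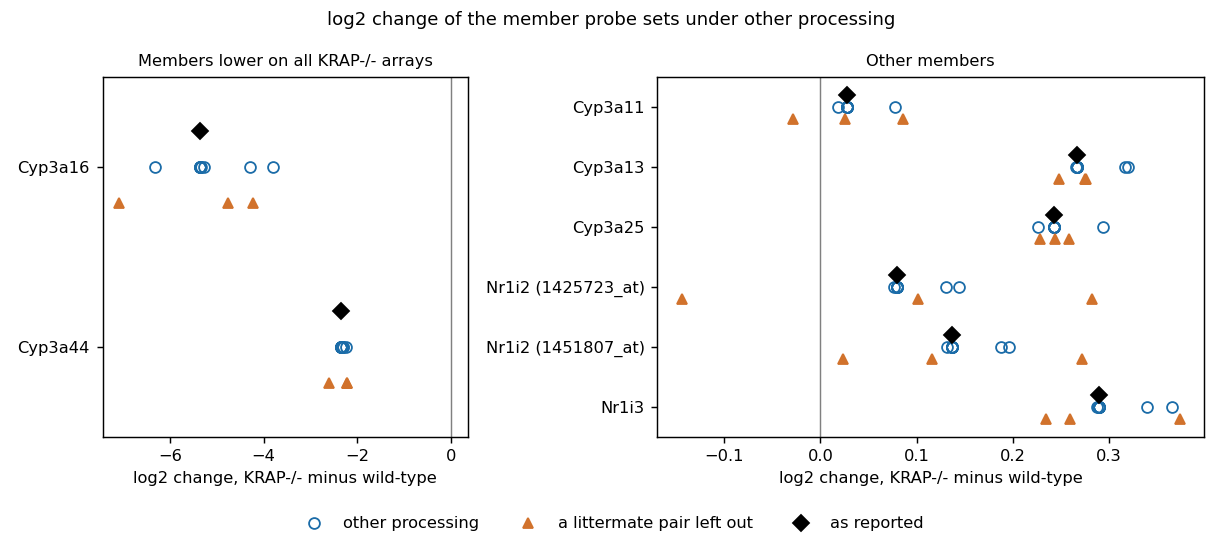
log2 difference, KRAP-/- minus wild-type, of the 8 member probe sets as reported (diamonds), with other scalings, floors and fits (circles) and with 1 littermate pair left out (triangles). Cyp3a16 runs from −7.08 to −3.81 and Cyp3a44 from −2.61 to −2.21, while Cyp3a11 and the Nr1i2 probe set 1425723_at fall below 0 when pair 1 is left out.

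Partners of the receptors were measured for 12 of 15 listed genes, and none passed the test in either direction, with a median log2 difference of 0.10. Ppargc1a, a coactivator induced by fasting, gave the largest difference, at 7.58 ± 0.597 in KRAP-/- and 4.74 ± 0.497 in wild-type (SD, n = 3; log2 0.68, SE 0.14, limma adjusted p = 0.060). Its other 4 probe sets gave 0.34 to 0.55, and with pairs left out of the fit as a block its adjusted p was 0.040. Without pair 2 it also passed (log2 0.80, limma adjusted p = 0.025). It did not pass without pair 1 or pair 3 (limma adjusted p = 0.12 and 0.11). Nr0b2, which encodes the corepressor SHP, read 32.8 ± 3.84 and 23.8 ± 8.63 (log2 0.52, limma adjusted p = 0.12) and passed at adjusted p = 0.0077 without pair 1. Rxra, the common partner of PXR and CAR, read 49.6 ± 6.67 in KRAP-/- and 51.6 ± 6.82 in wild-type (log2 −0.06, limma adjusted p = 0.83).

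Por was not analysed here, but other genes of electron transfer to P450 enzymes and of heme synthesis were measured for 12 of 13 listed. Of these, 1 rose, 2 fell and 9 did not pass, with a median of −0.12. Cyb5r3, the reductase of cytochrome b5, fell from 156 ± 20.2 to 98.05 ± 4.68 (SD, n = 3; log2 −0.66, SE 0.08, limma adjusted p = 0.0065), and its other 2 probe sets were also called lower. Cyb5b, the cytochrome b5 of the outer mitochondrial membrane, fell from 117 ± 8.89 to 81.5 ± 3.35 (log2 −0.52, SE 0.08, limma adjusted p = 0.018) at all 3 of its probe sets, although on unscaled values this probe set missed the threshold (adjusted p = 0.078). Cpox, which makes a heme precursor in mitochondria, rose from 22.3 ± 6.54 to 39.8 ± 6.53 (log2 0.86, SE 0.11, limma adjusted p = 0.0067). Its other 2 probe sets gave 0.40 and 1.40 without a call, and the call was lost when the pair was no block of the fit (adjusted p = 0.060).

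Targets of PXR and CAR outside the Cyp3a family were fitted for 22 of 25 listed genes. None rose, 2 fell and 20 did not pass, with a median of −0.07. Without pair 3, 7 fell, where lower calls over the whole table went from 279 to 469. Aldh1a7, an aldehyde dehydrogenase, fell from 185 ± 23.6 to 115 ± 15.0 (SD, n = 3; log2 −0.69, SE 0.13, limma adjusted p = 0.036). Papss2, which makes the sulfate donor of sulfotransferases, fell from 120 ± 26.4 to 82.7 ± 9.26 (log2 −0.52, SE 0.09, limma adjusted p = 0.026), with 1 of its other 2 probe sets also called. On unscaled values neither passed (adjusted p = 0.092 and 0.11), nor did Papss2 when pairs were left out of the fit as a block (adjusted p = 0.13). Cyp2b10, the usual readout of CAR, read 19.8 ± 4.67 and 26.4 ± 7.24 and was higher in 1 of 3 KRAP-/- mice than in the littermate (log2 −0.40, SE 0.22, limma adjusted p = 0.44). The lowest value in the list was that of Cyp2c55, 1.97 ± 1.15 against 5.09 ± 1.94 (log2 −1.54, SE 0.44, limma adjusted p = 0.15). Cyp2b10, Cyp2c55 and Rxra were singled out here after their values were seen.

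**Figure D5:**
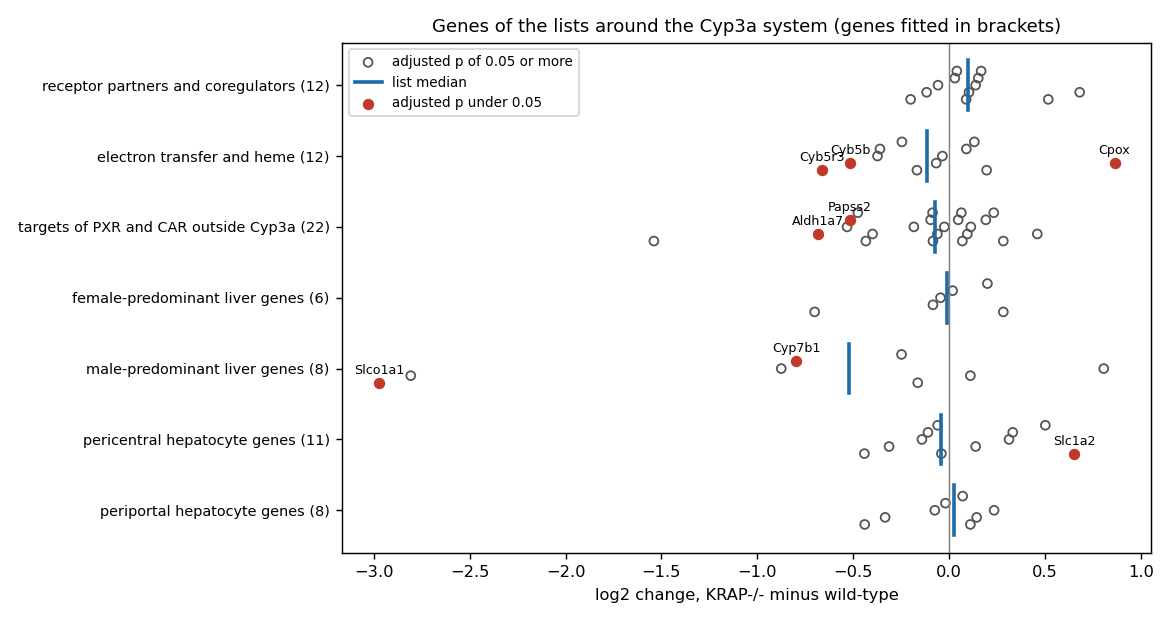
log2 difference, KRAP-/- minus wild-type, of each listed gene at its brightest probe set (circles, filled in red at an adjusted p under 0.05 and named), by list, with the number of genes fitted in brackets and the list median as a blue bar. Medians lie between −0.12 and 0.10 for every list but the male-predominant genes, whose median is −0.52 with 2 of 8 called. That list includes Hsd3b5, which lay under the floor on every KRAP-/- array.

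Cyp3a44 and Cyp3a41a are known for sex-dependent levels in liver, so other genes with that property were set beside them. By Xist and Y-linked signals the mice were all female, so the male-predominant genes were read in female liver. Of the female-predominant genes, 6 of 11 were fitted, none passed in either direction, and the median was −0.01. The extremes were Prom1, 5.44 ± 1.66 in KRAP-/- and 9.42 ± 5.23 in wild-type (SD, n = 3; log2 −0.70, SE 0.34, limma adjusted p = 0.38), and Cyp2b13, 124 ± 14.0 and 104 ± 27.3 (log2 0.28, SE 0.10, limma adjusted p = 0.26). Prom1 rested on pair 2, without which it was at −0.02, and 1 gene of the list was called higher without that pair. Of the male-predominant genes, 8 of 11 were fitted, none rose, 2 fell and 6 did not pass, with a median of −0.52. That median includes Hsd3b5 (log2 −2.81, limma adjusted p = 0.36), which read under 0.1 on every KRAP-/- array. In wild-type mice 1, 2 and 3 it read 1.86, 1.84 and 0.0233, so the size of its difference is set by the floor. The list had 5 lower genes without pair 3, a setting that raised lower calls over the whole table from 279 to 469. It had 1 higher gene without pair 1. The uptake transporter Slco1a1 fell from 10.7 ± 4.88 to 1.67 ± 1.54 (log2 −2.97, SE 0.44, limma adjusted p = 0.014) at both its probe sets, with −2.27 without pair 2 and −3.78 without pair 3. The oxysterol hydroxylase Cyp7b1 fell from 37.7 ± 4.58 to 21.7 ± 1.62 (log2 −0.80, SE 0.11, limma adjusted p = 0.011), also at both. The highest value of the male-predominant list was that of Cyp2d9, 32.8 ± 11.2 against 23.2 ± 20.6 (log2 0.81, SE 0.35, limma adjusted p = 0.32). It was higher in KRAP-/- in 2 of 3 pairs and was singled out after its value was seen. Gstp1 was also above 0 (log2 0.11, limma adjusted p = 0.64). Cyp2b9 and Cyp2b13 stand in both the target list and the female-predominant list.

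Cyp3a11 and CAR targets are highest around the central vein, so genes of the ends of the lobule were counted too. Of 11 pericentral genes, 1 rose, Slc1a2, a glutamate transporter, from 18.8 ± 0.355 to 29.6 ± 1.93 (SD, n = 3; log2 0.65, SE 0.09, limma adjusted p = 0.012), 10 did not pass, and the median was −0.04. Without pair 3, 3 of these genes rose, where higher calls over the whole table went from 123 to 295. Of the other 3 probe sets of Slc1a2, 1 was also called, and they ranged from 0.17 to 3.16. Of 8 periportal genes fitted, none passed and the median was 0.03. Cdh1 (log2 −0.44, SE 0.15, limma adjusted p = 0.22) and Cyp2f2 (log2 −0.33, SE 0.10, limma adjusted p = 0.16) were the largest, and Cyp2f2 passed at adjusted p = 0.024 without pair 3.

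In whole liver, fewer cells of a type and less RNA per cell cannot be told apart. The summed signal of 6 hepatocyte markers was 3331 to 3832 in KRAP-/- and 3502 to 3587 in wild-type, and none of them passed the test. Kupffer cell markers summed to 114 to 119 and 137 to 161, and 1 of 6, Clec4f, was called lower (log2 −0.54, SE 0.09, limma adjusted p = 0.025), though not on unscaled values (adjusted p = 0.071). Endothelial markers summed to 85.3 to 89.1 in KRAP-/- and 91.8 to 103 in wild-type, again without overlap. Much of that sum was Clec4g, at 40.0 ± 1.21 in KRAP-/- and 45.7 ± 1.93 in wild-type (log2 −0.19, limma adjusted p = 0.35). No endothelial marker passed the test, and 12.3% of single fitted probe sets lay wholly lower in KRAP-/-. Stellate cell (220 to 230 and 198 to 236), cholangiocyte (3.97 to 5.95 and 5.21 to 6.51) and lymphocyte sums (4.07 to 5.97 and 5.36 to 7.15) overlapped. So did those of adipocytes (8.56 to 11.5 and 8.60 to 26.2), intestinal epithelium (48.9 to 67.6 and 40.6 to 87.7) and pancreatic acinar cells (0.702 to 1.42 and 1.05 to 1.42). Much of the stellate sum was Dcn, at 126 ± 3.43 in KRAP-/- and 110 ± 12.4 in wild-type. Dcn and Reln were higher in KRAP-/- in all 3 pairs, while Lrat, Col3a1, Rgs5 and Col1a1 were lower in all 3. No stellate marker passed the test, and their median log2 difference was −0.34. Of the 5 intestinal markers measured, 4 read below 1 on every array, with Fabp2 the exception. The part of these markers in the Cyp3a values was not tested.

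Finally, profiles over the 6 arrays were compared by the root mean square difference of log2 signals centred on each probe set's own mean, over 23793 probe sets with 1 symbol. For Cyp3a44, which was chosen on this very contrast, the nearest were Fdps (0.303), 3110045C21Rik (0.327), Mvd (0.343), Lss (0.367) and Rdh11 (0.393), where the median probe set lay at 1.22. Fdps, Mvd and Lss encode enzymes of sterol synthesis and Rdh11 a retinol dehydrogenase. These nearest probe sets were themselves lower in KRAP-/-, from log2 −2.33 for Mvd to −1.74 for Rdh11, and shared control was not tested. The Cyp3a41a/Cyp3a41b probe set lay at 0.727 from Cyp3a44 and Cyp3a16 at 2.00, the latter with 2 of 6 arrays at the floor. For Cyp3a11, whose signal was nearly flat, the nearest were Ing5, Ctsh, Ube2r2, Pik3ca and Gorasp2, at 0.0150 to 0.0223 with a median of 0.246.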

How the data were processed

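Total liver RNA of 6 mice was hybridised by the authors as biotinylated cRNA to Affymetrix mouse arrays, 1 per mouse, and the deposited values are signal intensity from GCOS (version not given in the sources used here), linear and without a common scaling. The number of arrays (3 per group) limits the precision. Each array was divided by its median and floored at 0.1, 64 control probe sets were left out, and limma 3.58.1 (R 4.3.3) was run on log2 values of the 28531 probe sets whose mean reached 0.5 (littermate pair as block, intensity trend, Benjamini-Hochberg over all probe sets, threshold 0.05, two-sided). On simulated data whose noise followed intensity, the limma fit gave a larger share of false calls than its threshold allows. The simulated noise depended on intensity alone, with no spread of its own for each probe set and no pair effect. It therefore does not give the share of false calls in the real counts, which may also lie above the threshold. GEO's platform annotation gave 34945 probe sets 1 symbol, 932 several and 9160 none.

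KRAP-/- and wild-type come from the sample descriptions, and the pairs from the stated littermates. Deviations of littermates from their group means correlated at 0.04, 0.01 and −0.01 in pairs 1, 2 and 3. The spread between pairs is between mice, with 1 array each. The members and lists were chosen with earlier results of these data known. Named were all members, in each list up to 4 called genes or else the 2 with the largest change at the brightest probe set, and the 5 profiles nearest to Cyp3a11 and Cyp3a44. Promoters (all 8 members, RefSeq table, GRCm38.p6) were aligned globally over 250 bases with Biopython 1.88. Alternatives changed the scaling, floor, pseudocount, limit on dim probe sets, block, trend, cross-hybridising probe sets and pairs used. Brown fat, protein and probe sequences were not analysed here.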

Additional observations from a re-analysis of the deposited data

How the results depend on the processing

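The littermate pair was the block of the reported fit. Without the pair as a replicate block, 93 probe sets were higher and 255 lower in KRAP-/- (reported: 123 and 279), and 2 members were lower. With no limit on dim probe sets, and with no intensity trend, 0 were higher and 0 lower by limma, with 4551 and 3089 at an unadjusted p under 0.05, and 0 members were lower. In the other 11 alternatives 2 members were lower. Leaving out a littermate pair gave 123 to 295 higher and 288 to 469 lower (186 and 349 without pair 2, 295 and 469 without pair 3). At 2-fold in every pair, 376 were higher and 535 lower, and 854 were lower at 1.5-fold after a floor of 0.1. The 2 members called lower were Cyp3a16 and Cyp3a44, and their 26 values under 13 alternatives were all negative. Both genes were chosen on this contrast in these same arrays. Their counts and signs are therefore a description and no support. Of 78 values of the other 6 members, 0 passed (lowest adjusted p 0.071) and 2 changed sign, both without pair 1: Cyp3a11 at −0.028 (−0.028 to 0.086 over the pairs left out) and Nr1i2 at 1425723_at at −0.14 (−0.14 to 0.28). No scaling moved the median of all probe sets by over 0.1. The causes were not tested.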
